A study of Mus musculus with 16 samples.

Results

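Pituitary glands of mouse embryos at embryonic day 17.5 were profiled on Illumina bead arrays, 1 array per sample, and the genes described here encode the subunits of potassium, sodium and calcium channels. Insm1, the gene altered in these mice, encodes a DNA-binding regulator with zinc fingers that neuroendocrine cells make as they form. The study set 6 samples labelled Insm1 -/- (mutants) against 10 samples labelled Insm1 +/- (controls), so the controls also carry 1 mutant allele. All samples came from a mixed C57/BL6;129Ola background. The labels leave unsaid whether glands were pooled, and p-values therefore reflect only how far these 16 samples spread, which may be technical. Members were the genes whose symbol starts with Kcn, with Cacn, or with Scn followed directly by a digit. The array carried 108 such symbols, and 43 were above background, meaning a probe's detection p-value under 0.01, on no fewer than 6 of the 16 arrays. These 43 stand among 9682 genes tested and comprise 29 potassium channel genes of 79 on the array, 10 calcium channel genes of 20, 3 sodium channel genes of 8, and Kcnrg, whose symbol meets the rule although its product is a soluble regulator of potassium channels and no channel subunit.

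Anterior pituitary cells are electrically excitable. Background and voltage-gated potassium channels hold and restore the resting potential, sodium and low-threshold calcium channels bring a cell to firing, and calcium entry through high-threshold calcium channels drives the release of hormone granules. Pore-forming subunits make the channel, while auxiliary subunits set its traffic to the membrane, its voltage range or its calcium sensitivity.

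The 16 arrays were of similar depth, with 12928 to 13671 probes above background in mutants and 12892 to 14156 in controls. The probe for Insm1 was called higher in mutants: its log2 intensity was 11.78 ± 0.23 in mutants (SD, n = 6) and 11.42 ± 0.18 in controls (SD, n = 10), a change of 0.36 (SE 0.10, adjusted p = 0.0134). Because the files do not say where in the gene this probe lies relative to the allele's altered part, it is no check on the labels, and the words mutant and control stand for the labelled genotype. Control 10 stood apart: the summed level of 9 skeletal muscle transcripts was 13.38 in it and between 10.05 and 10.40 in the other 9 controls. Markers of several cell types moved with genotype. Summed levels of the muscle markers were 13.82 to 14.41 in mutants and 10.05 to 13.38 in controls, and 8 of 9 were called higher; Tnnt3 and Ckm were too dim to be tested. The 6 measured pituitary hormones summed to between 12.86 and 13.76 in mutants and between 16.16 and 16.68 in controls, and all 6 were called lower; Fshb was too dim. Of 9 neuron markers 4 were called lower and 0 higher, with sums of 12.09 to 12.40 in mutants and 12.42 to 12.89 in controls; Tubb3, Snap25 and Nefl were too dim. Endothelial and red blood cell markers had 0 calls (of 6 and of 3), mesenchyme markers 1 lower of 8, and glial markers 1 lower and 2 higher of 5. In whole glands, fewer cells of a type and less RNA per cell cannot be told apart.

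More channel genes were lower than higher in mutants. Of the 43 members, 19 fell and 4 rose (limma, adjusted p under 0.05 over all probes tested), and 20 were not called. Over all genes tested 29.9% were called, 14.0% lower and 15.9% higher. The median change of the members was -0.24 and that of all genes 0.03, where a change is the mutant minus the control level on the log2 scale. Falls of at least 2-fold were seen for 5 members (2.80% of all genes) and a rise of at least 2-fold for 1 member (1.06% of all genes). Levels of mutants and controls did not overlap for 13 members, against 9.19% of all genes. A gene dark in one group could pass the detection filter only through the other, so the same counts are given for genes above background on all 16 arrays: 9 of 30 members fell and 3 rose, against 13.0% and 16.1% of all such genes, with a median change of -0.14 for the members and 0.03 for all. In that subset 5 of 30 members had groups that did not overlap, against 8.48% of such genes, and the share of members called, 12 of 30, stood beside a background of 29.1%. Without control 10, 20 members fell and 4 rose. The part of the hormone, neuron and muscle differences above in these counts was not tested.

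**Figure D1:**
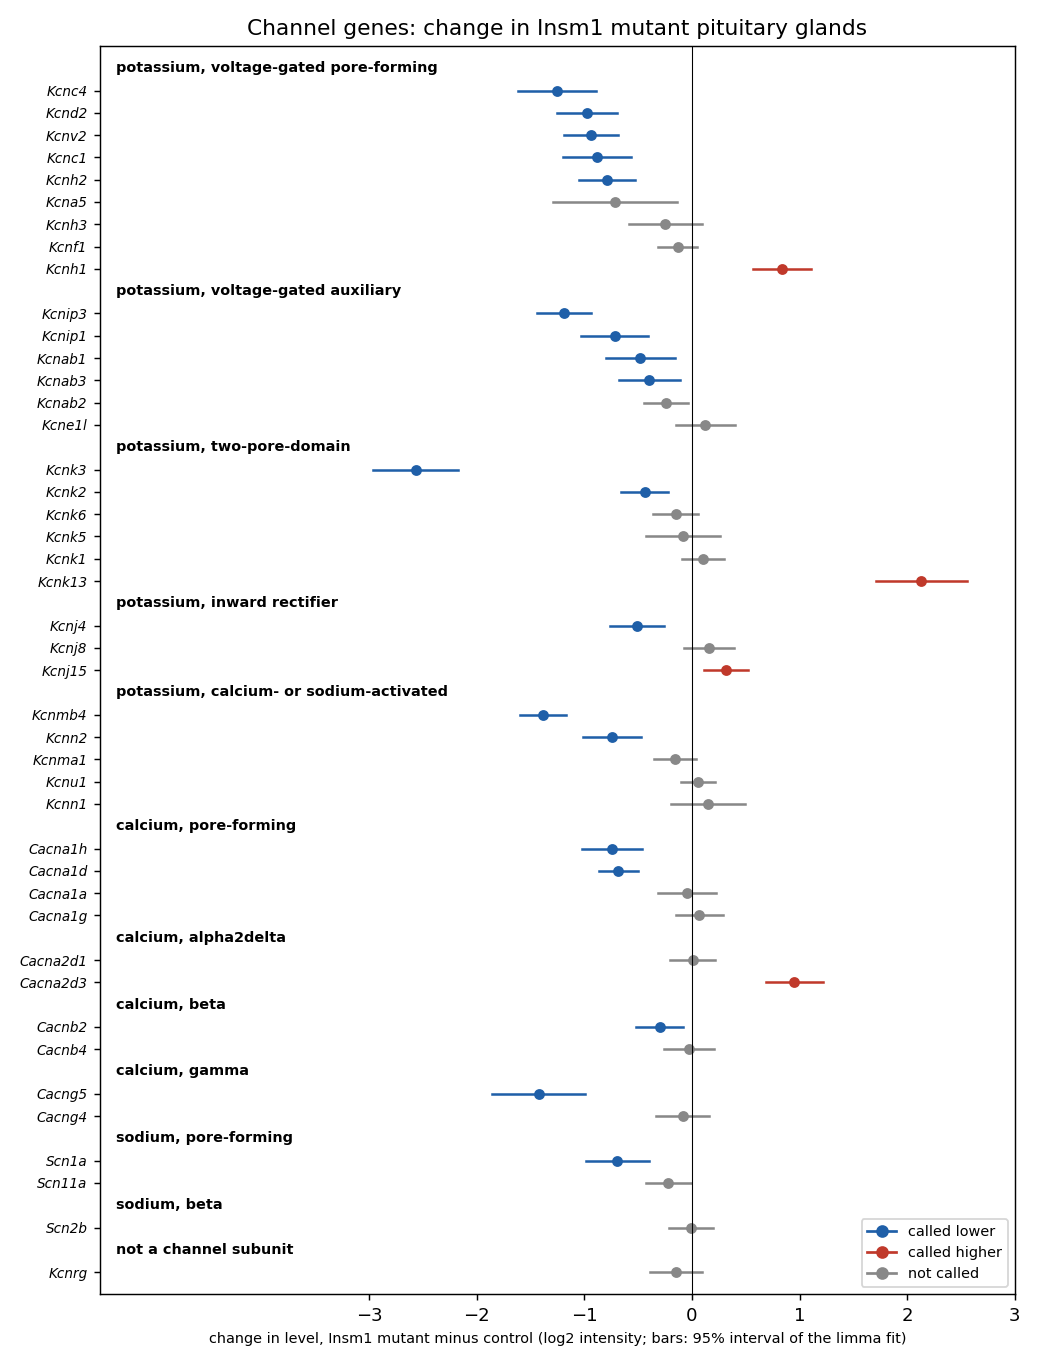
Change of each of the 43 channel genes, grouped by channel class. The x axis is the level in mutants (n = 6) minus the level in controls (n = 10) in log2 intensity; points are fitted changes, bars are 95% intervals, and colour gives the call. The 19 falls reach -2.57 (Kcnk3) and the 4 rises reach 2.13 (Kcnk13).

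The slide of an array was inferred from the number that opens its sample name. The arrays of slide 1 (4 mutants, 4 controls) and slide 2 (2 mutants, 6 controls) share no sample and were also compared alone. On slide 1, 18 members were called (18.1% of all genes), 3 higher and 15 lower, and all 18 had the same sign on slide 2. On slide 2, 10 members were called (7.72% of all genes), and all 10 had the same sign on slide 1. The 5 called members that missed the threshold on both slides were Kcnk2, Kcnab1, Kcnab3, Kcnj15 and Cacnb2. On slide 2 a total of 13 called members missed the threshold. Besides those 5 they were Kcnc1, Kcnd2, Kcnh2, Kcnip1, Kcnj4, Kcnn2, Cacna1h and Scn1a. With the slide as a block Cacnb2 (adjusted p = 0.0682) and Kcnab3 (adjusted p = 0.0522) missed it, and the other 21 called members passed.

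**Figure D2:**
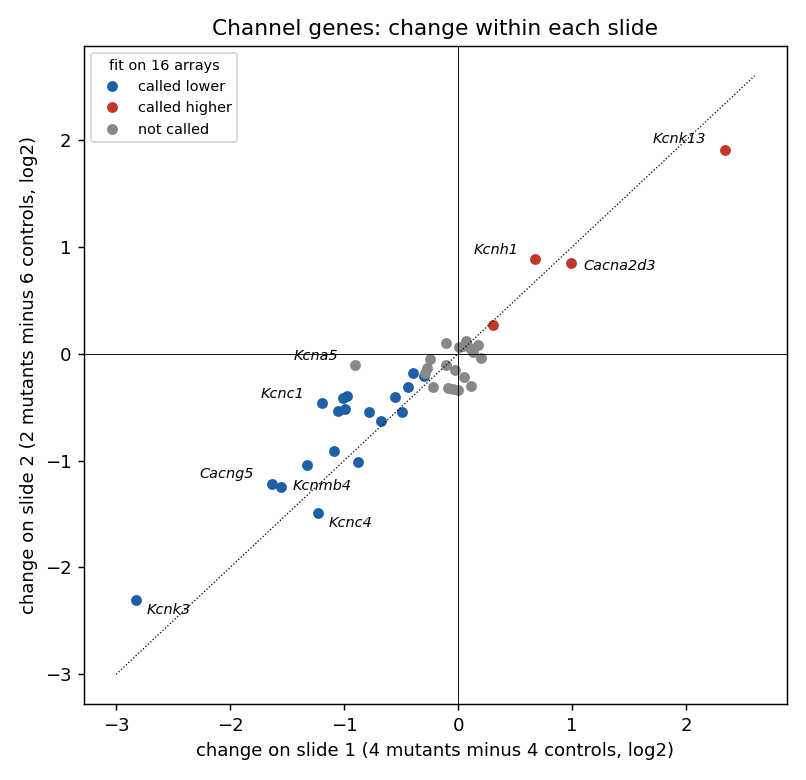
Change of each channel gene on slide 1 (x axis, 4 mutants minus 4 controls) against its change on slide 2 (y axis, 2 mutants minus 6 controls), both in log2 intensity; the dotted line marks equal change and colour gives the call from all 16 arrays. Called genes that were lower lie at the lower left and those that were higher at the upper right, with Kcnk3 at -2.83 and -2.30 and Kcnk13 at 2.34 and 1.91.

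Promoter sequences were available from RefSeq (GRCm38.p6) for 32 of the 43 members, with 49 entries of 300 bases, each covering 250 bases before and 50 after a transcription start. Shown are the 2 falls (Kcnmb4 and Kcnc4) and the 2 rises (Kcnk13 and Cacna2d3) with the largest change among members without overlap that have 1 entry. Capitals mark CAGGGG, letters found inside the INSM1 binding motif, and GGGCGG, the GC box, each on either strand.
Kcnmb4 (chr10:116473474-116473773, minus strand): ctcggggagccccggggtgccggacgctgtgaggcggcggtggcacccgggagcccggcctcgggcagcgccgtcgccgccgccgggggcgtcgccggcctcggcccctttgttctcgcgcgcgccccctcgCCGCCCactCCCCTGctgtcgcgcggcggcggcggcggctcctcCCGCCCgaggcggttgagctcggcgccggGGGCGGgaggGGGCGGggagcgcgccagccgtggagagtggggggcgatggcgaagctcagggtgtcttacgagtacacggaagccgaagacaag
Kcnc4 (chr3:107458849-107459148, minus strand): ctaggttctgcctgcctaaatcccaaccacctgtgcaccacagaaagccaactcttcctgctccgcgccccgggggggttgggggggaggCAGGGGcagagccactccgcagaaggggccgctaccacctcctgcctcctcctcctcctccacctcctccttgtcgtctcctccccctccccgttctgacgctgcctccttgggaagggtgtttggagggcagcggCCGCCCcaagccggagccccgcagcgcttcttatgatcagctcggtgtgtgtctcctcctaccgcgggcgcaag
Kcnk13 (chr12:99964249-99964548, plus strand): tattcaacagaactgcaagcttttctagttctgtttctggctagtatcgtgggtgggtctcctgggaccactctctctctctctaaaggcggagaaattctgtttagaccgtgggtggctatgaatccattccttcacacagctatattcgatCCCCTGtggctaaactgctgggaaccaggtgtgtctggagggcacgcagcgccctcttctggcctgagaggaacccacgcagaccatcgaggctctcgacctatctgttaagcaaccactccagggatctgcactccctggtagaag
Cacna2d3 (chr14:29721815-29722114, minus strand): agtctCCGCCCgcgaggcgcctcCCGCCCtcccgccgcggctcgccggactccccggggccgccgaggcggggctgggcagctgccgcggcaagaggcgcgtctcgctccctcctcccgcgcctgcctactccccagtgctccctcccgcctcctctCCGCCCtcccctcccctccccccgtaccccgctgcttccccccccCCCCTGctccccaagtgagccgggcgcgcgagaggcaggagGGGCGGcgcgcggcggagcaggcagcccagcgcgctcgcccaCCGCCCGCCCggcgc
All 4 hold CAGGGG at 1 place, while GGGCGG stands at 4 places for Kcnmb4, 1 for Kcnc4, 0 for Kcnk13 and 6 for Cacna2d3, and the motifs share 0 bases. Of the 10 members without overlap that have an entry, 6 hold CAGGGG, while Cacng5, Cacna1d, Kcnd2 and Kcnh1 do not. CAGGGG was found in 10 of 26 promoter entries of members that fell, 2 of 4 of members that rose, 5 of 19 of members not called, and 24.1% of all 32851 entries. Counted by gene, at least 1 entry held it for 9 of 14 members that fell, 2 of 4 that rose, 5 of 14 not called and 26.6% of all genes, a tally in which genes with several entries have more chances to hold it. GGGCGG was found in 14 of 26, 2 of 4 and 7 of 19 entries of the same groups and in 35.7% of all entries. By gene it was held by 13 of 14, 2 of 4 and 7 of 14 members and by 38.2% of all genes. These matches describe the letters in the window; the arrays do not measure binding.

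Two-pore-domain potassium channels, which carry the background leak that sets the resting potential, held both the largest fall and the largest rise of the 43 genes. Of 6 members, 2 fell, 1 rose and 3 were not called. Kcnk3 encodes an acid-sensitive leak channel of the TASK group. Its lowest, median and highest levels were 4.68, 4.76 and 5.23 in mutants and 6.26, 7.53 and 7.94 in controls. It was above background on 0 of 6 mutant arrays and on all 10 control arrays, and the groups did not overlap. With the background correction used, the fall was thus at least 3.65-fold. For this bound, each mutant array entered with its Kcnk3 value or with its dimmest probe above background, whichever was higher. The fitted change was -2.57 (SE 0.19, adjusted p = 1.52e-08), between -2.30 and -2.83 within the slides and -2.69 without control 10. Without background correction the change was -1.46, so the bound holds only for the correction used. Control 10 held the lowest control level (6.26), with the other 9 between 7.05 and 7.94.

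Kcnk13 encodes a channel of the THIK group, known in microglia among other cells, and was higher in mutants. Its lowest, median and highest levels were 6.81, 7.16 and 7.55 in mutants and 4.76, 4.85 and 6.37 in controls. All 6 mutant arrays and 1 control array, control 10, were above background, and even that control lay below every mutant. The fitted rise was 2.13 (SE 0.20, adjusted p = 2.92e-07) and 2.28 without control 10. Its size rests on dim control signal, and it ranged from 1.17 without background correction to 2.76 with the deposited values. Control 10, at 6.37 against 4.76 to 5.21 in the other 9 controls, was also the control with the muscle signal. Macrophage markers (3 of 4 called higher) had sums of 9.34 to 9.91 in mutants and 9.08 to 9.39 in controls, control 10 being the highest control; Fcer1g and Ptprc were too dim. The part of muscle or macrophage cells in the Kcnk13 rise was not tested.

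The third called member of the class was Kcnk2, a mechanosensitive channel of the TREK group, with a smaller fall. Its levels ran from 9.51 through a median of 9.78 to 10.08 in mutants, and from 9.96 through 10.22 to 10.55 in controls, so the groups overlapped. The change was -0.44 (SE 0.10, adjusted p = 0.00406). Kcnk1 and Kcnk6, of the TWIK group, and Kcnk5, an alkaline-activated channel, were not called. Their differences were 0.10, -0.15 and -0.08, and their 95% intervals lay within -0.43 and 0.30.

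Pore-forming subunits of voltage-gated potassium channels repolarise the membrane after a spike. Of 9 members, 5 fell, 1 rose and 3 were not called, with a median change of -0.79. Of those that fell, Kcnd2 and Kcnv2 were above background on only 2 and 0 of 6 mutant arrays and met the detection rule through the controls. Kcnc4 and Kcnc1 belong to the fast, high-threshold Shaw group. Kcnc4 had a lowest, median and highest level of 6.05, 6.62 and 7.19 in mutants and 7.52, 7.97 and 8.50 in controls, without overlap. It fell by 1.26 (SE 0.17, adjusted p = 2.57e-05), or 2.39-fold, and by 1.23 and 1.49 within slides 1 and 2. Kcnc1 fell by 0.88 (SE 0.15, adjusted p = 0.000231); mutant 5 (9.74) lay above control 10 (9.48), and on slide 2 alone the change of -0.46 missed the threshold (adjusted p = 0.215).

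Kcnd2 encodes a subunit of the rapidly inactivating A-type current. Its lowest, median and highest levels were 5.06, 5.31 and 5.52 in mutants, of which 2 arrays were above background, and 5.79, 6.29 and 6.67 in controls. The groups did not overlap, and the fitted change was -0.98 (SE 0.13, adjusted p = 2.38e-05). With 4 mutant arrays dim, that size ranged from -0.49 without background correction to -1.41 with the deposited values, and slide 2 alone missed the threshold (adjusted p = 0.0534). Kcnv2, a silent subunit that modifies Shab channels, read 4.50, 4.69 and 4.87 in mutants and 5.26, 5.65 and 6.04 in controls. It was above background on 0 mutant and 6 control arrays, the fewest the rule admits, and so met the rule through controls alone. Its fitted change was called (adjusted p = 1.10e-05). The fall was at least 1.06-fold with the background correction used.

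The Eag-type channels split. Kcnh2, the ERG channel known in rat lactotropes to hold back firing, averaged 8.12 ± 0.21 in the 6 mutants and 8.91 ± 0.27 in the 10 controls (SD). It fell by 0.79 (SE 0.12, adjusted p = 9.77e-05). The groups overlapped, with the highest mutant at 8.44 and the lowest control at 8.27. On slide 2 alone the change of -0.53 missed the threshold (adjusted p = 0.133). The other Kcnh2 probe that passed the detection filter changed by -0.87 (adjusted p = 0.00660). Kcnh1, the founding Eag channel, which is used in human myoblast fusion, rose. Levels were 8.07, 8.33 and 8.50 in mutants and 7.12, 7.47 and 7.99 in controls, without overlap, and the rise was 0.84 (SE 0.13, adjusted p = 6.93e-05). Control 10, the array with muscle signal, held the highest control level of Kcnh1 (7.99, against at most 7.79 in the others), and the rise without it was 0.90. The part of muscle in it was not tested.

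Kcna5, a delayed rectifier of the Shaker group, differed by -0.72 without being called (SE 0.27, adjusted p = 0.0604). Mutant 2 lay at 7.31, while mutants 5 and 6 (9.53 and 9.49) lay above the control median of 9.42. The call depended on single arrays and on the processing: it passed without background correction (-0.63, adjusted p = 0.0485), and without control 10 the difference was -0.78 and passed the threshold (adjusted p = 0.0442), as it did without mutant 5 or mutant 6. Kcnh3 and Kcnf1, a silent subunit, were not called, with differences of -0.25 and -0.13.

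**Figure D3:**
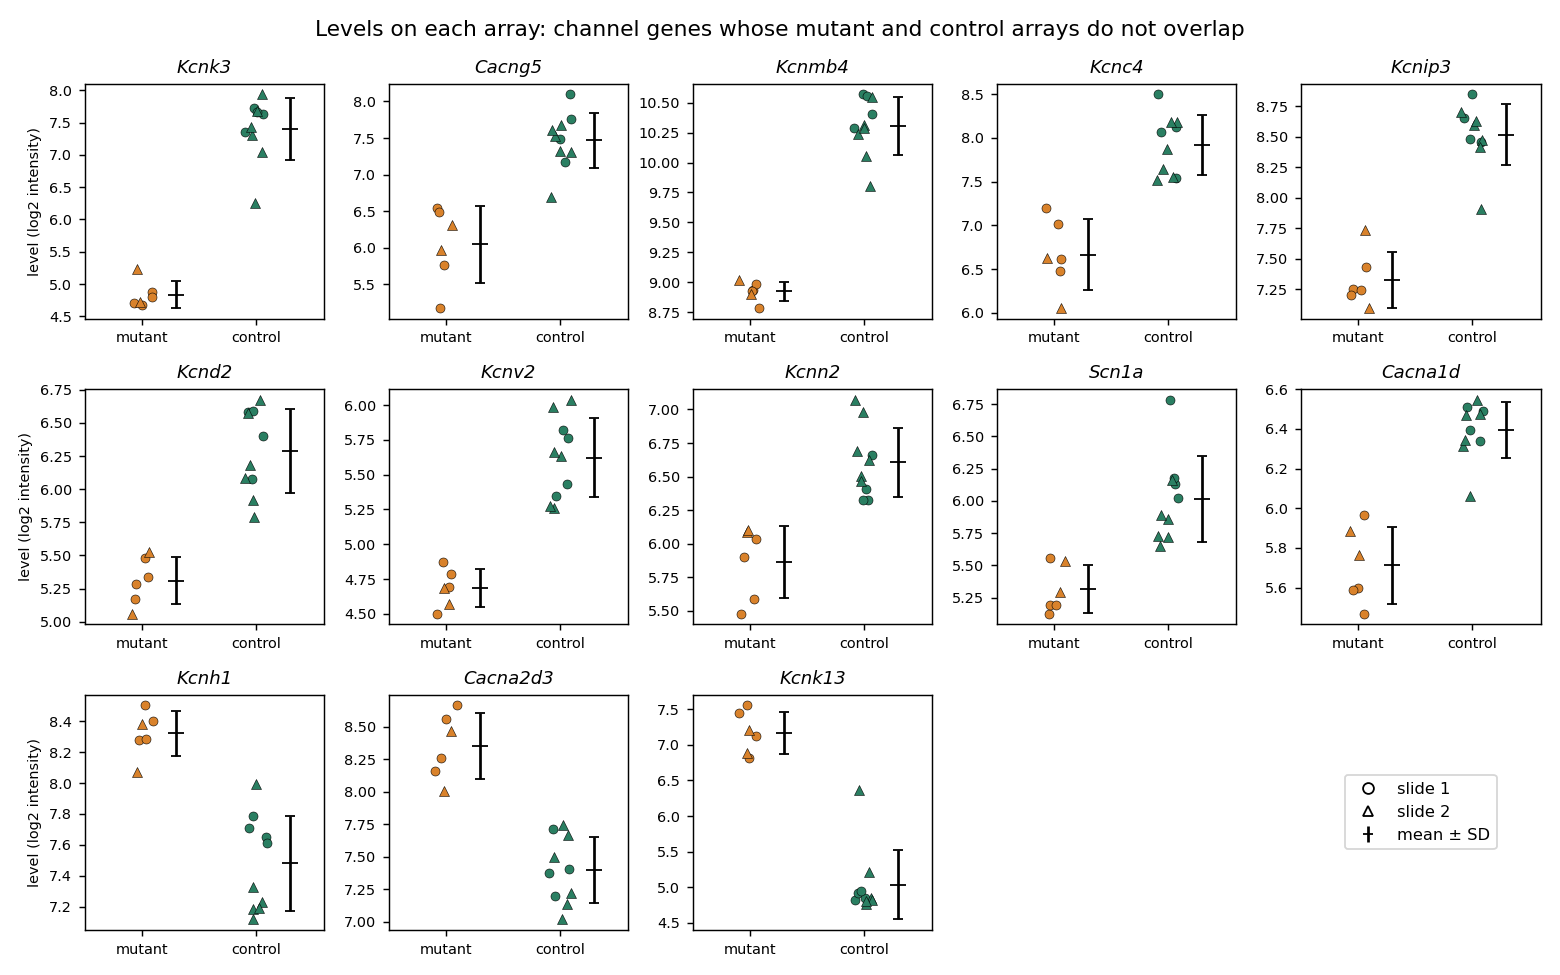
Levels (log2 intensity) on each array for the 13 channel genes whose mutant and control arrays do not overlap, ordered by fitted change. Circles are slide 1, triangles slide 2, and the bar beside each group is its mean ± SD (mutants n = 6, controls n = 10). The mutants lie below all controls for 10 genes and above all controls for Kcnh1, Cacna2d3 and Kcnk13.

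Auxiliary subunits of voltage-gated potassium channels had 6 members, of which 4 fell and 0 rose, with a median change of -0.44. Of those that fell, Kcnip1 and Kcnab3 were above background on all 10 controls but on only 4 and 3 of 6 mutant arrays. Kcnip3, a calcium-binding partner of A-type channels that is also known as the transcriptional repressor DREAM, had levels of 7.10, 7.25 and 7.74 in mutants and 7.91, 8.54 and 8.85 in controls. No mutant reached the lowest control, which was control 10, and the change was -1.19 (SE 0.12, adjusted p = 7.20e-07). Kcnip1, of the same family, read 5.08, 5.53 and 5.87 in mutants (4 of 6 above background) and 5.70, 6.21 and 6.74 in controls, and fell by 0.72 (SE 0.15, adjusted p = 0.00138), or by 0.36 without background correction.

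The cytoplasmic beta subunits of Shaker-type channels showed smaller differences. Kcnab1 read 8.63, 8.78 and 9.51 in mutants and 8.96, 9.40 and 9.90 in controls, with overlapping groups, and changed by -0.48 (SE 0.15, adjusted p = 0.0254); its second probe changed by -0.52. Kcnab3 changed by -0.40 (SE 0.14, adjusted p = 0.0361), a call lost without background correction (-0.19, adjusted p = 0.0574) and with no filter on dim probes (adjusted p = 0.0589). Leaving out 1 array ended the Kcnab1 call in 3 of 16 cases (mutants 2, 3 and 4) and the Kcnab3 call in 7 of 16 (the same mutants and controls 5 to 8). Kcnab2 (-0.24, adjusted p = 0.0731, called under cyclic loess with adjusted p = 0.0411) and the X-linked Kcne1l (0.13, adjusted p = 0.521) were not called.

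Among channels opened by internal ions, the subunit that tunes big-conductance calcium-activated channels changed and the pore itself was not called. Of 5 members, 2 fell and 0 rose. Kcnmb4, the beta subunit that makes those channels slow and toxin-resistant, had levels of 8.78, 8.93 and 9.02 in mutants and 9.80, 10.30 and 10.57 in controls. The mutants spanned a narrow range well below every control, and the fall was 2.61-fold (-1.38, SE 0.10, adjusted p = 1.52e-08). Its other 2 probes changed by -1.45 and -1.33, and within slides 1 and 2 the change was -1.55 and -1.25.

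Kcnma1, the pore-forming subunit that Kcnmb4 joins, differed by -0.16 with a 95% interval from -0.35 to 0.03 (adjusted p = 0.222). The difference between Kcnmb4 and Kcnma1 was not tested. Kcnn2, a small-conductance calcium-activated channel that shapes the pause after a spike, read 5.48, 5.97 and 6.10 in mutants (4 of 6 above background) and 6.32, 6.56 and 7.07 in controls. Its groups did not overlap, and it fell by 0.74 (SE 0.13, adjusted p = 0.000254), or by 0.42 without background correction. Kcnn1 (0.15) and Kcnu1, known as a sperm channel (0.06), were not called.

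Inward rectifiers, which pass current best near the resting potential, gave small differences in both directions. Kcnj4 was above background on 0 of 6 mutant arrays and 8 of 10 controls, with levels of 4.91, 5.28 and 5.46 in mutants and 5.30, 5.75 and 6.08 in controls. The groups overlapped, and the fitted change was called (adjusted p = 0.00316). The fall was at least 1.14-fold with the background correction used. Kcnj15 read 6.90, 7.21 and 7.51 in mutants and 6.59, 6.86 and 7.11 in controls. It rose by 0.32 (SE 0.10, adjusted p = 0.0231), with overlapping groups, and 3 of 16 single-array omissions (mutants 1, 3 and 6) ended that call, as did cyclic loess normalisation (0.25, adjusted p = 0.0770). Kcnj8, a pore of ATP-sensitive channels typical of pericytes, differed by 0.16 (adjusted p = 0.327). Summed pericyte and smooth muscle markers were at 11.32 to 11.90 in mutants and 10.29 to 11.50 in controls. Of these, 3 of 6 were called higher: Acta2, Notch3 and Des, which is also among the skeletal muscle markers. Rgs5 (0.07), Cspg4 (-0.01) and Pdgfrb (0.45, adjusted p = 0.428) were not called, and Tagln, Myh11 and Cnn1 were too dim.

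Pore-forming calcium channel genes were lower for 2 of 4 members. Cacna1d encodes an L-type channel that opens at low voltage and supports pacemaking in endocrine cells. Its levels were 5.47, 5.68 and 5.97 in mutants and 6.06, 6.43 and 6.55 in controls; the groups did not overlap, and 4 of 6 mutant arrays were above background. The change was -0.68 (SE 0.087, adjusted p = 1.02e-05), -0.78 on slide 1 and -0.54 on slide 2, and its second probe changed by -0.66 (adjusted p = 0.00159). Without background correction it was -0.36 and still called (adjusted p = 5.37e-05). The lowest control was control 8 (6.06).

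The T-type channels, which open near rest, differed from each other in call. Cacna1h fell by 0.74 (SE 0.13, adjusted p = 0.000318), with levels of 9.63, 10.01 and 10.40 in mutants and 10.35, 10.76 and 11.26 in controls, so the highest mutant lay just above the lowest control. Of the 3 probes for Cacna1g on the array, 2 passed the detection filter. They differed by 0.07 and 0.04 and were not called, and the 95% interval of the first was -0.15 to 0.29. The difference between Cacna1h and Cacna1g was not tested. Cacna1a, the P/Q-type channel of nerve terminals, differed by -0.05 (adjusted p = 0.817) and was above background on 2 mutant and 5 control arrays.

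The auxiliary calcium channel subunits went different ways. Cacna2d3, an extracellular alpha2delta subunit that raises channel number at the membrane, was the only calcium channel gene among the 10 members to be called higher. It read 8.00, 8.36 and 8.66 in mutants and 7.02, 7.39 and 7.74 in controls, without overlap. The rise was 0.95 (SE 0.13, adjusted p = 1.46e-05), or 1.94-fold, and 0.99 and 0.85 within the slides. The highest control was control 10 (7.74), with the others at or below 7.71. Its relative Cacna2d1 differed by 0.01, with a 95% interval from -0.20 to 0.22 (adjusted p = 0.972).

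Cacng5, of the gamma family best known for its members that escort AMPA-type glutamate receptors, fell most among the calcium channel genes. Levels were 5.17, 6.14 and 6.55 in mutants and 6.69, 7.51 and 8.10 in controls. The groups met closely without overlapping, control 10 being the lowest control, and the change was -1.42 (SE 0.20, adjusted p = 3.98e-05), with -1.10 at the second probe and -0.91 without background correction. Cacng4, of the same family, was not called (-0.09). Of the cytoplasmic beta subunits, which carry the pore to the membrane, Cacnb2 fell by 0.30 (SE 0.10, adjusted p = 0.0385). Its levels were 7.07, 7.33 and 7.84 in mutants and 7.53, 7.67 and 7.89 in controls, and its call was lost in 8 of 16 single-array omissions (mutants 2 to 4 and controls 2, 5, 7, 8 and 9), under median scaling (adjusted p = 0.0645) and with no filter on dim probes (adjusted p = 0.0556). Cacnb4 was not called (-0.03).

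Of the 3 sodium channel genes, 1 fell. Scn1a, a pore-forming subunit of tetrodotoxin-sensitive channels in neurons, read 5.13, 5.25 and 5.56 in mutants and 5.65, 5.96 and 6.78 in controls. It was above background on 1 of 6 mutant arrays and all 10 controls, and the groups lay next to each other without overlap. The fitted change was -0.69 (SE 0.14, adjusted p = 0.00105), -1.01 on slide 1 and -0.42 on slide 2 (adjusted p = 0.124). With 5 of 6 mutant arrays dim, its size ranged from -0.33 without background correction to -1.04 with the deposited values. Scn11a, a persistent sodium channel of sensory neurons, differed by -0.22 (adjusted p = 0.112), and the beta subunit Scn2b by 0.00 with a 95% interval from -0.21 to 0.20. Kcnrg differed by -0.15 (adjusted p = 0.385).

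Grouped by role rather than by ion, pore-forming and auxiliary genes gave similar descriptions. Of 28 pore-forming members 12 fell and 3 rose (median change -0.23), and of 14 auxiliary members, Kcnmb4 included, 7 fell and 1 rose (median -0.27). Across arrays, the members that fell are summarised by their median. This median deviation from the control mean lay between -1.10 and -0.63 on the 6 mutant arrays and between -0.12 and 0.14 on controls 1 to 9, while control 10 lay at -0.36. Control 10 was the lowest of the 10 controls for 10 of the 19 members that fell and the highest for 3 of the 4 that rose. It held all 6 hormones' summed level at 16.16, the lowest control value, and the muscle sum given above; the part of its cell makeup in these levels was not tested. These deviations describe genes chosen by their call and test nothing further.

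**Figure D4:**
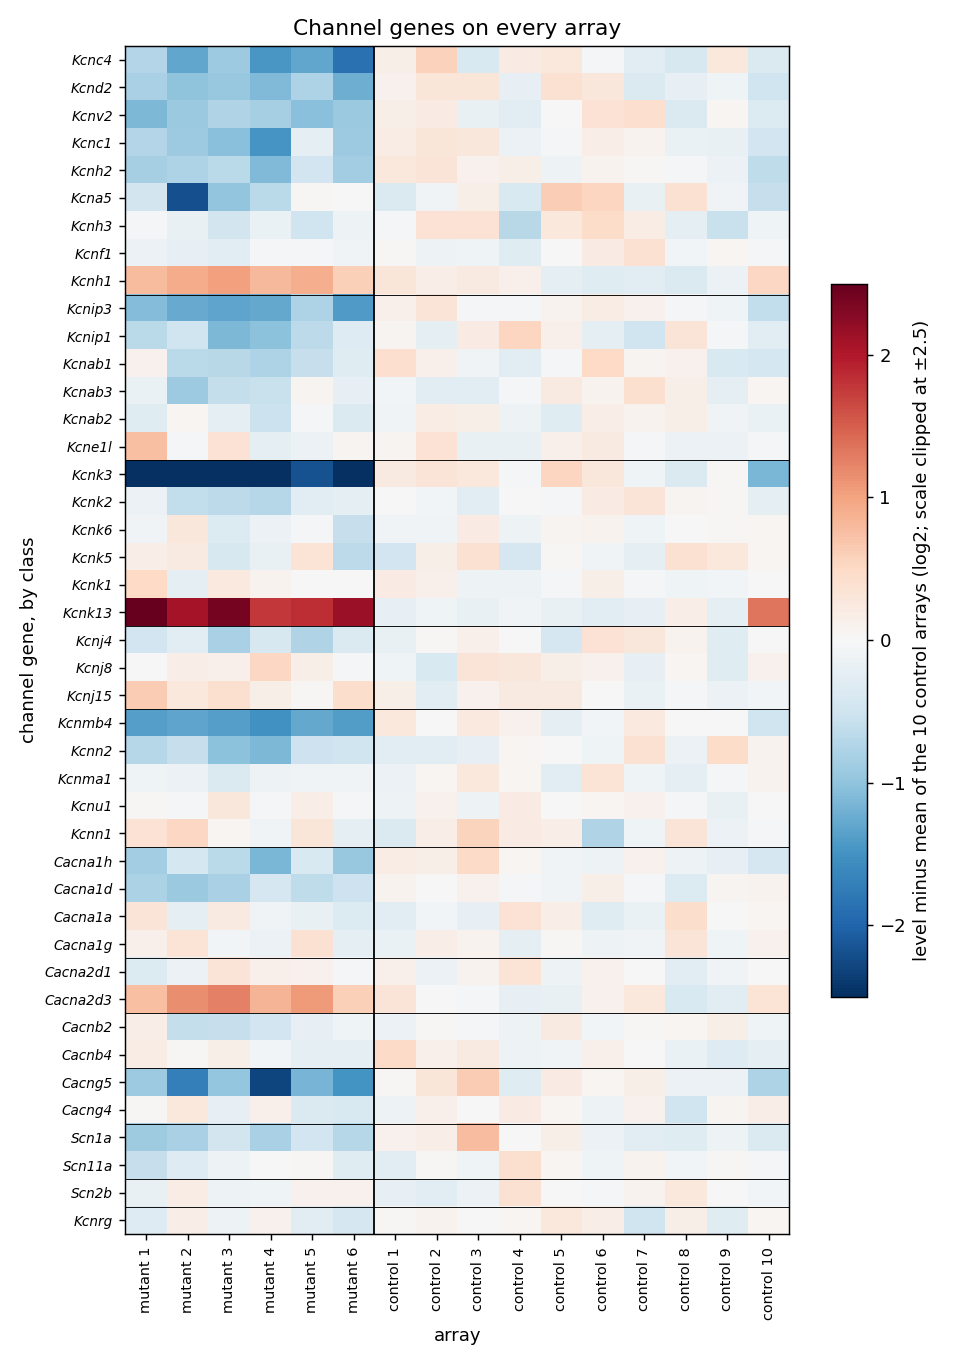
Level of each channel gene on each array minus the mean of the 10 controls (colour, log2 intensity, clipped at ±2.5); columns are the 6 mutants and then the 10 controls, and rows are genes by class. Kcnk3 is dark blue and Kcnk13 dark red on the mutant arrays, and control 10 shows a paler version of both.

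Other transport genes of excitable cells were described by a list of 47 pumps, exchangers and channels outside the 3 families, of which 25 were tested. Of these, 7 fell and 2 rose, beside 14.0% and 15.9% of all genes, with a median change of -0.20; the share called lies near the background of 29.9%. Atp2b2, a calcium pump of the plasma membrane, fell by 1.20 (SE 0.090, adjusted p = 2.07e-08). Abcc8, the sulfonylurea receptor of ATP-sensitive potassium channels, fell by 1.54 (SE 0.15, adjusted p = 4.17e-07). Hcn2, a pacemaker channel, fell by 1.59 (SE 0.21, adjusted p = 1.82e-05), with levels of 5.74 to 7.34 in mutants and 6.96 to 8.32 in controls. The 2 rises were Ryr3 (0.94, adjusted p = 0.000407) and Orai1 (0.28, adjusted p = 0.0496). Ryr3 was above background on all 6 mutant arrays and on 6 of 10 control arrays.

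A second list held 24 proteins that bind or anchor channels, of which 15 were tested. Of these, 7 fell and 3 rose, beside 14.0% and 15.9% of all genes, with a median change of -0.24. Their summed levels were 13.09 to 13.15 in mutants and 13.005 to 13.16 in controls. The rises were Stac (0.94, adjusted p = 0.000114), Fgf13 (0.34, adjusted p = 0.00484) and Cntnap2 (0.26, adjusted p = 0.0196). Dpp6, a membrane partner of A-type channels such as Kcnd2, fell by 1.04 (SE 0.15, adjusted p = 2.86e-05). Dlg4, the scaffold PSD-95, fell by 0.82 (SE 0.12, adjusted p = 6.52e-05), and Fgf12, an intracellular partner of sodium channels, fell by 0.82 (SE 0.12, adjusted p = 7.09e-05). Of the 9 neuron markers, 4 were lower: Elavl3 (-0.98), Gap43 (-0.91), Syt1 (-0.54) and Elavl4 (-0.39). Stmn2 (-0.36), Map2 (-0.24), Nefm (-0.12), Rbfox3 (-0.11) and Dcx (0.10) were not called. The part of neurons in the falls of these channel genes and partners was not tested.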

How the data were processed

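Trizol RNA was hybridised as biotinylated cRNA, per the labels' protocols, and the submitters' processing notes list GenomeStudio (version not given in the sources used here). Per the file headers, the raw deposited file gives 25697 probes an average intensity per array beside the authors' detection p-value; its values show no background subtraction or normalisation. The authors' deposited series matrix, an intensity table that looks subtracted and quantile-normalised, served as an alternative (floor 16).

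From the raw file, background was corrected by limma's nec (offset 16), followed by quantile normalisation and log2. Tables were read in R 4.3.3 with the package data.table (version 1.17.8), and limma was version 3.58.1. The filter kept 13813 probes whose detection p-value was below 0.01 on 6 or more arrays. Genotype alone entered the limma fit (lmFit, eBayes). All adjusted p-values are limma's, corrected by Benjamini-Hochberg across those probes and called at 0.05. The tests were also run on simulated data. The number of arrays limits the precision.

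Probes were named through the platform annotation (23978 with 1 symbol, 0 with several, 1719 unnamed here), and a gene is its kept probe with the highest mean. Other probes of a gene are given only where they also passed the filter, and some members have further probes that did not. All 43 members matched RefSeq GRCm38.p6 by Entrez identifier. Every member is named. The lowest, median and highest level per group are given for Kcnk3, Cacna1d, Cacna2d3 and up to 3 called members per class with the largest change. From each partner list the 3 genes with the smallest adjusted p and the rises are named. Members, classes, lists and alternatives were chosen with earlier results of these data known. No 2 arrays held identical values. Alternatives covered background, normalisation, deposited values, filter, variance model, slide, replicate number, probe, threshold and each array left out.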

Additional observations from a re-analysis of the deposited data

Results flagged for a closer look

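The search for outlying arrays covered the 43 channel genes and the 6 partner genes described as having the smallest adjusted p of their list. In 98 groups of arrays it looked for a single array far from the rest of its group. Chance gives such an array in about 1 of 20 groups. In 13 cases the highest or lowest array was separated by more than Dixon's limit, and 5 of these were control 10. In control 10, Kcnk3 read 6.26 (next lowest control 7.05), Kcnip3 7.91 (8.41), Kcnh2 8.27 (8.76) and Hcn2 6.96 (7.60), while Kcnk13 read 6.37, with the next highest control at 5.21. The calls of Kcnk3, Kcnip3, Kcnh2 and Kcnk13 held without control 10.

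Mutant 5 held the highest mutant level of Kcnk3 (5.23, next 4.88) and of Hcn2 (7.34, next 6.13). Control 8 held the lowest control level of Cacna1d (6.06, next 6.31) and of Cacng4 (6.75, next 7.12). The others were Kcnma1 in mutant 3 (6.76, next lowest 6.97), Kcnj8 in mutant 4 (7.56, next highest 7.22), Scn1a in control 3 (6.78, next highest 6.18) and Scn11a in control 4 (11.00, next highest 10.70).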

How the results depend on the processing

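Across the alternatives run, Kcnk3, Cacna1d and Cacna2d3 kept their direction and passed the threshold. Their changes ranged from -3.19 to -1.46, from -0.91 to -0.36 and from 0.76 to 1.02, and with each array left out in turn from -2.69 to -2.51, from -0.73 to -0.63 and from 0.89 to 1.02. The filter that requires all 16 arrays removes Kcnk3 and Cacna1d. The count of channel genes lower in mutants was 9 under that filter, which tests fewer genes (30 members), and 7 on slide 2 alone, which has 2 mutants. It ranged from 16 to 21 with single arrays left out, and the count of those higher from 3 to 4. No called member changed direction. At a threshold of 0.01, 16 were lower and 3 higher. The shares of all genes at that threshold, and with single arrays left out, are not given here. Those counts therefore describe the members only.

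Replicate numbers are shared by mutants and controls 1 to 6. Same-numbered arrays deviated together with correlations from 0.04 to 0.48, and number 3 stayed under 0.1. Of the 6 mutants, 4 correlated best with the control of their own number. These values do not settle whether the numbers mark pairs. The labels name no pairs, and the main fit used none. A fit with the replicate number as a block compares mutants with controls 1 to 6 only. Controls without a mutant of their number, control 10 among them, add nothing to it. In that fit 19 members were lower and 3 higher, and the share of all genes called is not given here. The calls of Cacnb2 (adjusted p = 0.122) and Kcnj15 (adjusted p = 0.135) were lost, and Kcna5 was called (-0.79, adjusted p = 0.0292). Probes dim in 1 group are limited by their signal over background. Those dim on every array of a group have a bound, which holds for the background correction used. The fitted size of those dim on some arrays moves with that correction.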

Other observations

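The 65 channel symbols that did not reach the detection rule were looked at with no filter on dim probes, where 59 were not called, 4 were lower and 2 higher in mutants. The 6 that were called are named because of their values. The share of all genes called without that filter is not given here, so no excess or lack can be read from these counts. The lower ones, Kcnip2 (adjusted p = 0.00429), Kcnmb2, Kcnt1 and Kcna1, were above background on 0 mutant arrays and on 5, 2, 4 and 2 control arrays, so no size is given. Kcnip2 belongs to the family of Kcnip3 and Kcnip1, and Kcnmb2 to that of Kcnmb4. Of the same families, Kcnip4 (adjusted p = 0.980) and Kcnmb1 (adjusted p = 0.982) were not called. Both were above background on 0 arrays. The higher ones were Kcns2, above background on 1 mutant array, and Kcnj14, on 0 arrays of either group. Just under the detection rule stood Kcnip2 and Kcns1, each above background on 5 control arrays, and just inside it Kcnv2, on 6.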
